A study of Mus musculus with 8 samples.

Results

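A set of 10 genes of the endoplasmic reticulum (ER) unfolded protein response and of ER-associated degradation (ERAD) were followed in mouse tibialis anterior (TA) muscle after knockdown of *Uba1*. The 10 members are *Hspa5*, *Hsp90b1*, *Xbp1*, *Dnajb9*, *Sdf2l1*, *Herpud1*, *Pdia4*, *Calr*, *Edem1* and *Syvn1*. They were taken by gene symbol, all 10 were found among the 41709 symbols of the table, and all 10 passed the filter on low values that left 11530 genes to be tested. The samples are whole TA muscles of 3-month-old male C57BL/6J mice, collected 7 days after electroporation. In each of 4 mice, 1 TA muscle received a pool of siRNAs against *Uba1*, which encodes the main ubiquitin-activating enzyme, and the contralateral muscle received a pool of non-targeting (NT) siRNAs. All 8 muscles were injected, pretreated with hyaluronidase and electroporated, and there is no untouched muscle. The treatment tags of replicates 2 to 4 name UBA2, UBA3 and UBA4, but the titles and descriptions name UBA1 and were used. Every NT muscle is labelled R and every *Uba1* muscle L, so leg and siRNA cannot be told apart.

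ER-resident chaperones fold proteins that enter the secretory pathway, and in muscle the ER is largely specialized as sarcoplasmic reticulum. When unfolded proteins build up, the sensors IRE1, PERK and ATF6 are released from the chaperone BiP, and the transcription factors XBP1 and ATF6 then raise the mRNAs of chaperones and of ERAD factors. ERAD moves misfolded proteins out of the ER and tags them with ubiquitin for the proteasome, so it draws on the ubiquitin that UBA1 activates. The comparison of siRNAs addresses whether the mRNAs of this response differ when UBA1 is reduced.

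Gene levels were deposited as TPM, transcript abundances scaled for length and to the same total in each muscle, so the number of reads behind them is unknown. Levels of *Uba1* mRNA averaged 60.6 ± 2.11 TPM in the 4 NT muscles and 15.9 ± 6.83 TPM in the 4 *Uba1* muscles (SD), and the groups did not overlap. The muscles carried the defining mRNAs of skeletal myofibers, of which *Acta1* and *Myh4* were chosen after their values were seen, with *Acta1* at 38115 ± 1982 and *Myh4* at 16945 ± 2710 TPM with NT siRNAs (SD, n = 4). Of the 8 plasma cell markers, cells with a highly developed ER, 7 stayed under 1 TPM in every muscle and 3 were at 0 in all. In whole muscle, fewer cells of a type and less RNA per cell cannot be told apart.

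The promoters of the members are shown because the unfolded protein response acts through short promoter elements. The windows run from 250 bases before to 50 bases from the transcription start of the canonical GENCODE M39 transcript on GRCm39. Both strands were searched for the ER stress response element (ERSE: CCAAT, 9 unspecified bases, CCACG), for ERSE-II (ATTGG, 1 unspecified base, CCACG) and for the core of the unfolded protein response element (UPRE: TGACGTG). In the members no match overlapped another. ERSE was found in 4 of the 10 windows, those of *Hspa5*, *Hsp90b1*, *Calr* and *Syvn1*, against 27 of 21574 protein-coding promoters of the same length (0.125%). The 27 include these 4 members, and the shares of promoters are given as description, without a test. ERSE-II was found in 1 of the 10, that of *Herpud1*, against 15 promoters (0.0695%). The UPRE core was found in *Hspa5* alone among the members, against 2.05% of promoters. The windows of *Xbp1*, *Dnajb9*, *Sdf2l1*, *Pdia4* and *Edem1* held none of these letters.

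Below are the stretches with a match, 5′ to 3′ on the strand of the gene, with the fixed letters of each element in capitals.
*Hspa5*, chr2:34661935-34662065, plus strand: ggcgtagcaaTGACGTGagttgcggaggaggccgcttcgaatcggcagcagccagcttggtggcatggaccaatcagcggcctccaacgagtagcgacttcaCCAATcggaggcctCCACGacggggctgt
*Hsp90b1*, chr10:86541387-86541530, minus strand: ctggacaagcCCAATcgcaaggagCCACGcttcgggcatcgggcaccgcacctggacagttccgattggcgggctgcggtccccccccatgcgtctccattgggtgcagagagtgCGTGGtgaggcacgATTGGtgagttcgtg
*Herpud1*, chr8:95112995-95113025, plus strand: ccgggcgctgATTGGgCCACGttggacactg
*Calr*, chr8:85573694-85573732, minus strand: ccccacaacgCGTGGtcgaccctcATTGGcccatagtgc
*Syvn1*, chr19:6096552-6096590, plus strand: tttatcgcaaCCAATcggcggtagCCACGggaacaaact
In *Hsp90b1* the ERSE nearer to the start and in *Calr* the only ERSE lie on the opposite strand, so they read as CGTGG, 9 bases and ATTGG. A match describes the letters and not binding by a factor.

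**Figure D1:**
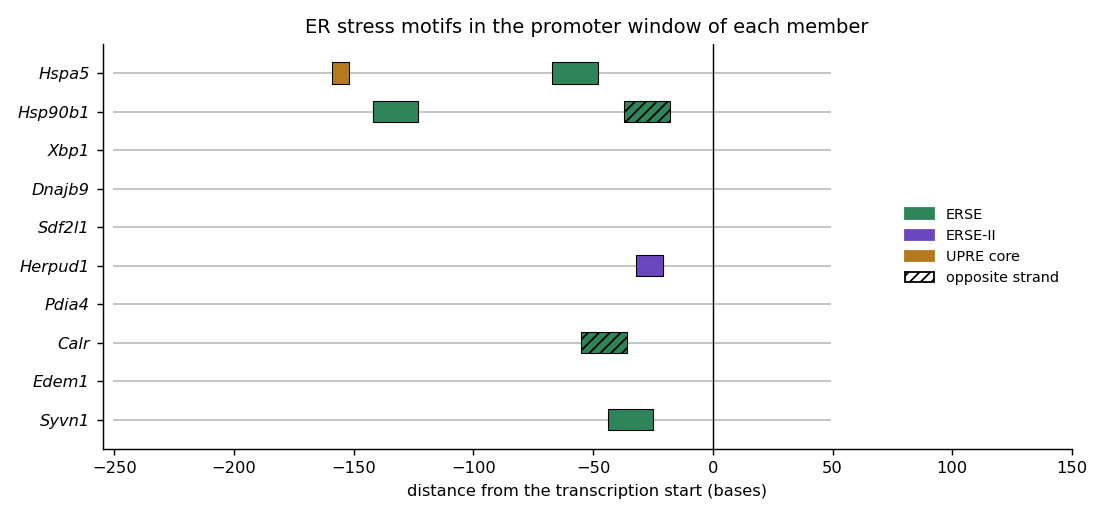
Position of each element in the promoter window of the 10 members, in bases from the transcription start (x axis), with hatched bars for the opposite strand. ERSE or ERSE-II lies between 67 and 19 bases upstream in 5 genes, and *Hsp90b1* has another ERSE from 142 to 124 bases upstream.

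The ER mRNAs spanned a wide range of levels. In TPM, averaged over the 8 muscles, the order was *Calr* (104.6), *Hspa5* (83.9), *Herpud1* (80.1), *Hsp90b1* (53.1), *Dnajb9* (30.7), *Xbp1* (29.3), *Pdia4* (11.1), *Syvn1* (10.2), *Sdf2l1* (3.78) and *Edem1* (3.62). *Calr* was above *Hspa5* in all 8 muscles although their ranges overlapped. *Hspa5* and *Herpud1* kept that order in 5 of 8 muscles, *Dnajb9* and *Xbp1* in 4, *Pdia4* and *Syvn1* in 5, and *Sdf2l1* and *Edem1* in 4, so these neighbours did not differ beyond their spread. The other neighbours did not overlap in any pair of muscles. *Calr* lay at the 94.7th percentile of the mean TPM of all genes tested and *Edem1* at the 29.2nd. Together the 10 mRNAs amounted to 354 to 470.5 TPM in the NT muscles and 372 to 424 TPM in the *Uba1* muscles.

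The chaperones come first. *Hspa5*, on chromosome 2, encodes BiP, the ER Hsp70 that binds unfolded chains and holds the sensors inactive. Its mRNA was at 69.4, 109.6, 85.6 and 85.4 TPM in NT replicates 1 to 4, and at 78.2, 76.4, 80.9 and 85.6 TPM in *Uba1* replicates 1 to 4. The highest and the lowest muscle both had NT siRNAs, and the *Uba1* muscles lay inside that range. The log2 fold change (log2FC, *Uba1* minus NT, on log2(TPM + 1)) was -0.11 (standard error, SE, of 0.121, limma, adjusted p = 0.638), with a 95% interval from -0.38 to 0.17.

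*Hsp90b1*, on chromosome 10, encodes GRP94, the ER Hsp90 that folds integrins and Toll-like receptors among others. It was at 45.9, 48.6, 58.9 and 48.3 TPM in the NT legs, against 57.8, 49.9, 65.1 and 49.99 TPM in the *Uba1* legs. It was higher in the *Uba1* leg of all 4 mice, but the groups overlapped. Its log2FC came to 0.14 (SE 0.108, limma, adjusted p = 0.488, interval -0.10 to 0.38). Its unadjusted p of 0.231 (limma) was the smallest among the 10 members in this unpaired fit. With the legs as a block its unadjusted p was 0.0965 (limma).

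*Calr*, on chromosome 8, encodes calreticulin, a soluble lectin chaperone that also binds calcium. It was at 91.1, 126, 108 and 94.96 TPM in the NT legs, against 108, 98.8, 113 and 96.4 TPM in the *Uba1* legs. The *Uba1* muscles lay inside the NT range, and its log2FC came to -0.0088 (SE 0.107, limma, adjusted p = 0.970, interval -0.25 to 0.23).

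*Pdia4*, on chromosome 6, encodes a protein disulfide isomerase of the ER. It was at 11.2, 9.69, 13.9 and 7.58 TPM in the NT legs, against 13.2, 10.2, 14.4 and 9.05 TPM in the *Uba1* legs. It was higher in the *Uba1* leg of 4 of 4 mice, and the mice held the same order in both legs. The spread between mice was larger than the difference between legs. Its log2FC came to 0.14 (SE 0.185, limma, adjusted p = 0.683, interval -0.28 to 0.56). With the legs as a block the SE was 0.0672 (limma, unadjusted p = 0.075, adjusted p = 0.237).

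*Dnajb9*, on chromosome 12, encodes ERdj4, a J-protein that helps BiP to hold IRE1 inactive and serves ERAD. It was at 23.2, 40.2, 27.6 and 37.8 TPM in the NT legs, against 26.5, 27.8, 26.2 and 36.0 TPM in the *Uba1* legs. The NT muscles spanned the *Uba1* muscles on both sides (log2FC -0.12, SE 0.176, limma, adjusted p = 0.719, interval -0.52 to 0.28).

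*Sdf2l1*, on chromosome 16, encodes a partner of the BiP J-protein ERdj3 that keeps clients soluble. It was at 2.92, 4.604, 4.89 and 2.98 TPM in the NT legs, against 5.87, 3.29, 2.93 and 2.73 TPM in the *Uba1* legs. *Uba1* replicate 1 was the highest of all 8 muscles and *Uba1* replicate 4 the lowest. Its log2FC came to -0.063 (SE 0.214, limma, adjusted p = 0.880, interval -0.55 to 0.42), the least precise of the members.

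*Xbp1*, on chromosome 11, encodes the transcription factor that IRE1 activates by splicing its mRNA. A TPM for the whole gene does not separate the spliced from the unspliced form, so only its total level is given. It was at 27.6, 31.2, 30.1 and 29.8 TPM in the NT legs, against 28.7, 25.4, 32.0 and 29.7 TPM in the *Uba1* legs. The 8 muscles kept closer together than for any other member, and its log2FC came to -0.038 (SE 0.0789, limma, adjusted p = 0.794, interval -0.22 to 0.14).

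The other members act in ERAD. *Herpud1*, on chromosome 8, encodes HERP, a membrane protein that organizes the HRD1 ligase complex. It was at 70.7, 86.2, 74.2 and 100.2 TPM in the NT legs, against 68.6, 68.2, 73.2 and 99.4 TPM in the *Uba1* legs. It was the only member that was lower in the *Uba1* leg of 4 of 4 mice, by 0.043, 0.33, 0.020 and 0.012 on the log2 scale, and mouse 4 was the highest in both legs. Its log2FC came to -0.10 (SE 0.145, limma, adjusted p = 0.704, interval -0.43 to 0.23).

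*Edem1*, on chromosome 6, encodes a mannosidase-like protein that marks misfolded glycoproteins for ERAD. It was at 3.37, 3.38, 4.62 and 3.48 TPM in the NT legs, against 3.85, 2.76, 4.26 and 3.21 TPM in the *Uba1* legs. Mouse 3 was the highest in both legs, and its log2FC came to -0.064 (SE 0.127, limma, adjusted p = 0.787, interval -0.35 to 0.22).

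*Syvn1*, on chromosome 19, encodes HRD1, the ubiquitin ligase at the center of ERAD. It was at 8.38, 10.7, 10.8 and 9.98 TPM in the NT legs, against 9.90, 9.11, 12.1 and 10.2 TPM in the *Uba1* legs. The groups overlapped over most of their range, and its log2FC came to 0.048 (SE 0.104, limma, adjusted p = 0.806, interval -0.19 to 0.28). Its sign turned with median-ratio scaling, to -0.071.

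**Figure D2:**
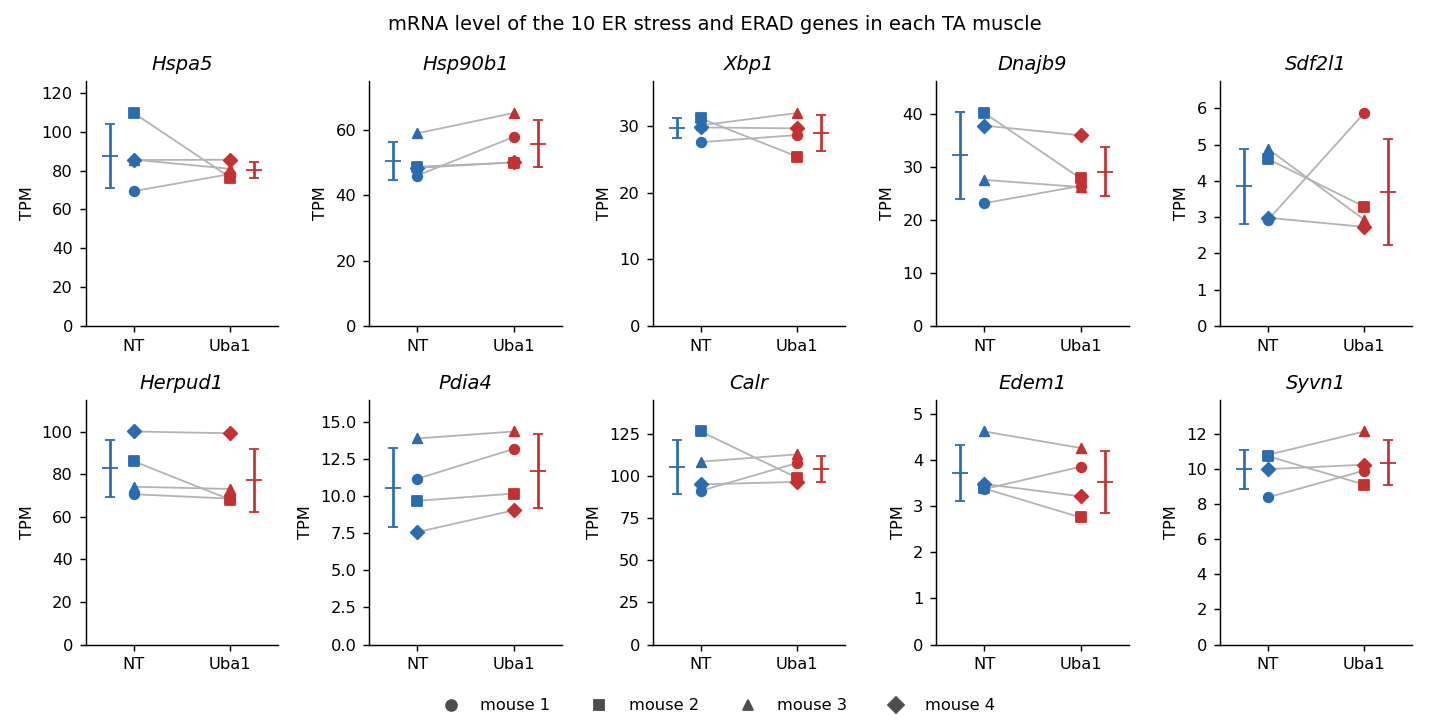
TPM of each member (y axes, from 0) in the 4 NT muscles (blue) and the 4 *Uba1* muscles (red), with a gray line for the legs of 1 mouse and bars for mean ± SD (n = 4). In all 10 panels the groups overlap, and mouse 2 (squares) falls from the NT to the *Uba1* leg in 8 of them.

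No member passed the test between siRNAs. At an unadjusted p under 0.05, 0 of the 10 were higher, against 16.0% of all genes tested, and 0 were lower, against 1.98%. At an adjusted p of 0.05, 0 of the 10 passed, against 0.026% of all genes (limma). With the legs of each mouse as a block, the counts were again 0 higher and 0 lower, against 22.4% and 2.8% of all genes at the unadjusted p, and 0 against 0.494% at the adjusted p. The groups of 0 members were free of overlap, against 10.6% of genes that lay higher and 1.01% that lay lower with *Uba1* siRNAs. An exact permutation test of single genes gave a two-sided p from 0.20 (*Hsp90b1*) to 0.971 (*Calr*), where 0.0286 is the smallest that 4 muscles against 4 allow. A p above the threshold does not show equal levels, and the 95% intervals give the sizes that a fit leaves possible. With the legs as a block they were -0.55 to 0.43 for *Sdf2l1* and -0.018 to 0.30 for *Pdia4* on the log2 scale. Over the 10 members the intervals of the unpaired fit reached from a fold of 0.685 (*Sdf2l1*) to 1.47 (*Pdia4*) of TPM + 1. With a pseudocount of 0.1, which shrinks genes of low TPM less, the interval of *Sdf2l1* was -0.67 to 0.51 and that of *Edem1* -0.44 to 0.27 on the log2 scale.

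The members lay low among all genes in their direction. In the unpaired fit 3 of the 10 had a log2FC above 0, against 81.8% of the genes tested. Their median log2FC was -0.051, against 0.11 over all genes, and 8 of the 10 lay below that median, all but *Hsp90b1* and *Pdia4*. The median of the members was above 0 with 1 muscle left out in 3 cases, at 0.011 without NT replicate 2, 0.016 without NT replicate 3 and 0.017 without *Uba1* replicate 2, each below the median of all genes in the same fit (0.099, 0.12 and 0.14). *Dnajb9*, *Hspa5* and *Herpud1* lay at the 6.59th, 7.10th and 7.33rd percentile of all log2FC. Since most genes shift together, the TPM were also scaled to the median ratio between muscles. The median of all genes was then -0.0055 with 48.0% of genes above 0, and the median of the members was -0.17 with 2 of the 10 above 0. At an unadjusted p under 0.05, 1 member was lower (*Xbp1*), against 6.7% of all genes, and 0 were higher, against 3.9%.

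With this scaling and the block together, 5 of the 10 members were lower at an unadjusted p under 0.05, against 9.5% of all genes, and 0 were higher, against 6.19%. They were *Herpud1* (log2FC -0.23, unadjusted p = 0.00764 from limma), *Xbp1* (-0.16, unadjusted p = 0.0282 from limma), *Dnajb9* (-0.24, unadjusted p = 0.0283 from limma), *Hspa5* (-0.23, unadjusted p = 0.0365 from limma) and *Edem1* (-0.17, unadjusted p = 0.0419 from limma). None of the 5 passed the adjustment over all genes, which 0.711% of genes did, and the adjusted p of *Herpud1* was 0.171 (limma). In this fit *Hsp90b1* and *Pdia4* were at 0.010 and 0.020. Without both muscles of mouse 2 the count was 1 of 10 (*Herpud1*), and the log2FC of *Hspa5*, *Dnajb9*, *Xbp1* and *Edem1* came to -0.13, -0.14, -0.11 and -0.14. Without mouse 3 it was also 1 of 10 (*Herpud1*), and the log2FC of these 4 genes came to -0.22, -0.24, -0.19 and -0.14. The count was 5 without mouse 1, with *Sdf2l1* (-0.43, unadjusted p = 0.0145 from limma) in place of *Xbp1* (unadjusted p = 0.0561 from limma). It was 4 without mouse 4, where *Edem1* was not called. Other lists held lower genes in the same fit with the scaling and the block, with 5 of the 12 sarcoplasmic reticulum genes, 4 of the 9 myofiber markers and 6 of the 15 genes of the PERK arm. Lower in that fit were 2 of the 34 genes of the ERAD core, 2 of 17 of disulfide exchange, 1 of 23 of the translocon and 1 of 12 of the oligosaccharyltransferase. None of the 19 genes of the ER Hsp70 cycle, the 11 of the UPR sensors, the 10 of the calnexin cycle or the 8 of ER-phagy was lower there. With the scaling alone, the median log2FC of the myofiber markers was -0.20, below that of the members. With the block and quantile normalization in place of this scaling, *Herpud1* and *Edem1* stayed under 0.05 (unadjusted p = 0.0225 and 0.0274 from limma). *Hspa5*, *Xbp1* and *Dnajb9* did not (unadjusted p = 0.111, 0.131 and 0.0851 from limma). In the TPM as deposited none of the 10 members passed.

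**Figure D3:**
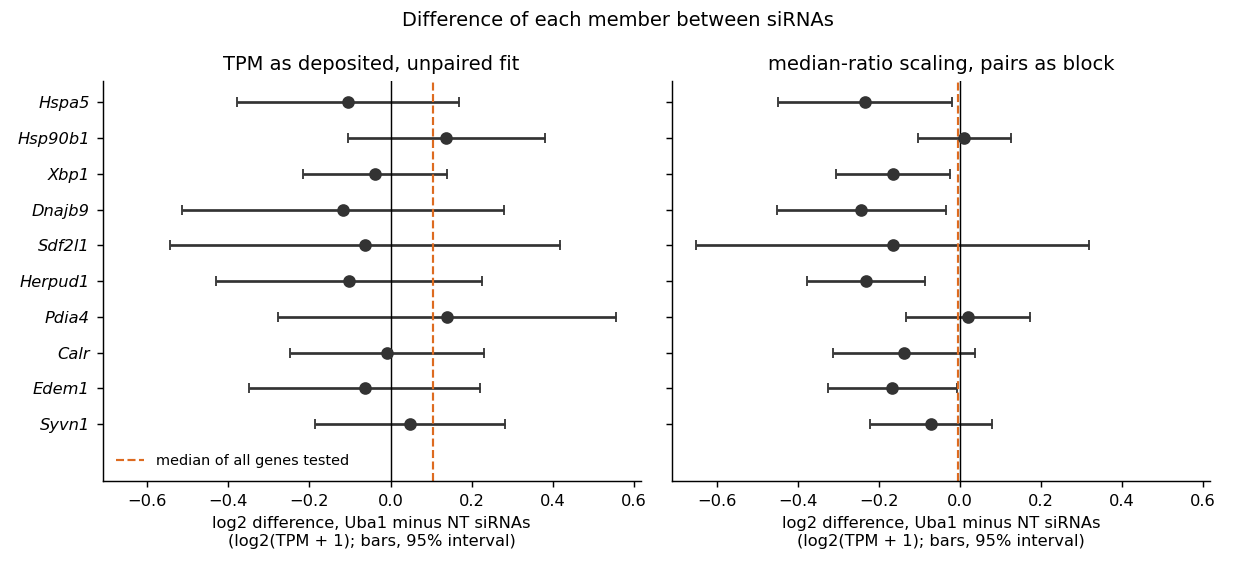
The log2 difference of each member (x axis, *Uba1* minus NT siRNAs on log2(TPM + 1)) with its 95% interval, in the unpaired fit of the TPM (left) and with median-ratio scaling and the legs as a block (right). All intervals on the left include 0, and those of *Hspa5*, *Xbp1*, *Dnajb9*, *Herpud1* and *Edem1* on the right lie below it, with the median of all genes dashed at 0.11 and -0.0055.

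The legs of single mice differed in opposite directions. In mouse 1, 9 of the 10 members were higher in the *Uba1* leg, with a median log2 ratio of 0.20 against 0.19 over all genes. In mouse 2, 8 of the 10 were lower, with a median of -0.31 against 0.030 over all genes. *Hspa5* and *Dnajb9* fell by 0.51 each there, *Calr* by 0.35 and *Herpud1* by 0.33, whereas *Hsp90b1* was at 0.037 and *Pdia4* at 0.065. Mice 3 and 4 were each divided into 5 higher and 5 lower, with medians of 0.012 and -0.0022 against 0.15 and 0.044 over all genes. *Sdf2l1* had the widest spread, from 0.81 in mouse 1 to -0.58 in mouse 3. Without both muscles of mouse 2, the blocked log2FC of *Hspa5* was 0.031, that of *Xbp1* 0.043, that of *Dnajb9* 0.015, that of *Calr* 0.11 and that of *Sdf2l1* 0.045. In the TPM as deposited, the log2FC of these 5 genes were all below 0 with mouse 2 included. With median-ratio scaling and the block they stayed below 0 without mouse 2, from -0.14 (*Dnajb9*) to -0.056 (*Calr*). *Sdf2l1* was also above 0, at 0.11, in the TPM without mouse 3.

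Other values of mouse 2 stood apart as well. Its *Uba1* leg had the lowest *Uba1* mRNA of all muscles (6.77 TPM, against 15.8 to 23.1 in the other *Uba1* legs). The same leg had the highest share of mitochondrial transcripts (50.3%, against 39.9% to 46.5%) and the lowest summed TPM of the 9 myofiber markers (107353, against 126468 to 153373 in the other *Uba1* legs and 137183 to 150701 with NT siRNAs). The NT leg of mouse 2 had the highest *Hspa5*, *Calr*, *Dnajb9* and *Xbp1* of all NT muscles. The part of these values in the result was not tested.

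**Figure D4:**
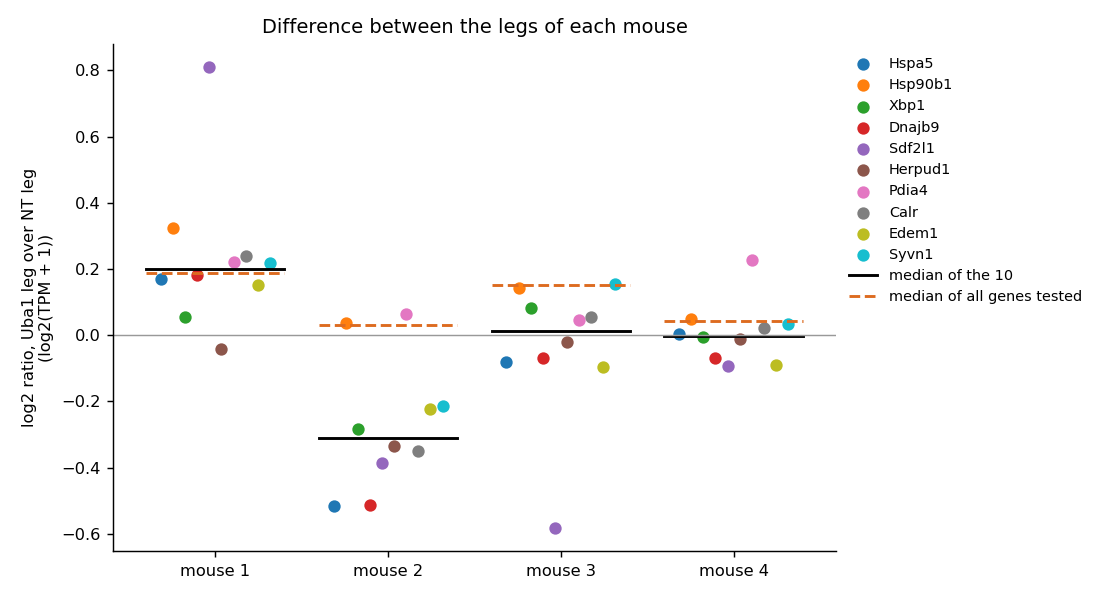
Log2 ratio of the *Uba1* leg over the NT leg (y axis, log2(TPM + 1)) of each member in each mouse, with the median of the 10 (black) and of all genes tested (dashed). The black line lies at 0.20 in mouse 1 and at -0.31 in mouse 2, and near 0 in mice 3 and 4.

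The same mouse had the highest level in both legs for 5 of the 10 members, against 36.4% of all genes tested. These were *Hsp90b1*, *Pdia4*, *Edem1* and *Syvn1* in mouse 3 and *Herpud1* in mouse 4. The 4 mice held the same order in both legs for 1 of the 10, *Pdia4*, against 8.93% of genes. In direction, 2 of the 10 (*Hsp90b1* and *Pdia4*) were higher in 4 of 4 mice, against 32.2% of genes, and 1 (*Herpud1*) was lower in 4 of 4, against 2.98%.

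Macrophage and fibroblast mRNAs were also uneven between mice. The 8 macrophage markers summed to 145 to 462 TPM with NT siRNAs and 135 to 480 TPM in the *Uba1* legs, with mouse 3 the highest in both legs, and none of the 8 was at 0 throughout. The 8 fibroblast markers summed to 561 to 1157 TPM with NT siRNAs and 729 to 1431 TPM in the *Uba1* legs, again with mouse 3 the highest in both legs. *Lum* (log2FC 0.49, unadjusted p = 0.0133 from limma) and *Col1a2* (0.55, unadjusted p = 0.0467 from limma) were higher with *Uba1* siRNAs at the unadjusted p, as 2 of the 8 (against 16.0% of all genes), 1 of the 8 was with median-ratio scaling (against 3.9%), and 4 of the 8 were with the scaling and the block (against 6.19%), the fit in which 5 members were lower. These marker genes and the other ones named here were chosen after their values were seen. Of the 6 endothelial and 4 satellite cell markers tested, 0 passed, and of the 3 osteoblast markers tested, 2 (*Bglap* and *Ibsp*) were higher, with list sums of 10.01 to 16.8 TPM in NT muscles and 12.9 to 43.6 TPM in *Uba1* muscles. *Hsp90b1*, *Pdia4*, *Edem1* and *Syvn1* were likewise highest in mouse 3, and the part of these cell types in their levels was not tested.

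The rest of the ER machinery was described by lists of symbols. The 11 tested genes of the UPR sensors and their activation had a median log2FC of 0.15 against 0.11 for all genes, or 0.038 with median-ratio scaling. At an unadjusted p under 0.05, 1 of the 11 was higher and 0 lower (against 16.0% and 1.98% of all genes). The gene was *Tmbim6*, which encodes an ER membrane inhibitor of cell death (log2FC 0.17, limma, unadjusted p = 0.0435, adjusted p = 0.264). Its call was lost with the block (limma, unadjusted p = 0.0807) and with median-ratio scaling (log2FC 0.038). *Mbtps2*, the site-2 protease that releases ATF6, had a log2FC of 0.15 (unadjusted p = 0.0789 from limma). The sensors themselves, chosen after their values were seen, were *Ern1* (IRE1) at 0.15, *Eif2ak3* (PERK) at 0.16 and *Atf6* at -0.000505 on the log2 scale.

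Of the 19 genes of the ER Hsp70 cycle and soluble chaperones, 0 passed in either direction in the unpaired fit, with a median log2FC of 0.081, or -0.036 with median-ratio scaling. The smallest p belonged to *Fkbp10*, a prolyl isomerase for procollagen, with a log2FC of 0.36 (limma, adjusted p = 0.327), and to *Lman1*, a cargo receptor for export, with 0.16 (limma, adjusted p = 0.340). With the legs as a block *Fkbp10* passed at the unadjusted p (limma, unadjusted p = 0.00167), and so it did with median-ratio scaling added (limma, unadjusted p = 0.00961). Of the 17 tested genes of disulfide exchange and ER oxidation, 0 passed in the unpaired fit, with a median of 0.068, or -0.059 with median-ratio scaling. *Tmx1* and *Txndc12*, both of the thioredoxin family, had the smallest p of the list, with log2FC of 0.16 and 0.13. *Tmx1* passed with the block (limma, unadjusted p = 0.0478) but not with the block and median-ratio scaling (limma, unadjusted p = 0.46).

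The calnexin cycle had 2 of 10 tested genes higher at the unadjusted p, near the 16.0% of all genes, and 0 lower. *Canx*, encoding the membrane-bound counterpart of calreticulin, was at 27.1, 31.9, 33.9 and 31.8 TPM in the NT legs, against 36.0, 36.0, 37.9 and 34.7 TPM in the *Uba1* legs. Its groups did not overlap (log2FC 0.21, limma, unadjusted p = 0.0218, adjusted p = 0.214). *Edem3*, a paralog of *Edem1*, was at 9.64, 9.85, 10.8 and 12.2 TPM in the NT legs, against 13.8, 13.9, 15.5 and 10.9 TPM in the *Uba1* legs (log2FC 0.31, limma, unadjusted p = 0.0195, adjusted p = 0.209). With median-ratio scaling their log2FC were 0.084 and 0.19, and neither passed.

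Of the 34 tested genes of the ERAD core complex, 8 were higher at the unadjusted p (23.5%, against 16.0% of all genes) and 0 lower, with a median log2FC of 0.12 against 0.11. With median-ratio scaling 0 of the 34 passed in either direction and the median was -0.0014. *Vcpip1*, a deubiquitinase that works with the p97 ATPase, had a log2FC of 0.25 (limma, adjusted p = 0.202). *Sel1l*, the partner of HRD1, was chosen after its values were seen. It was at 14.0 to 15.9 TPM in the NT legs, against 16.3 to 18.3 TPM in the *Uba1* legs. Its log2FC was 0.16 (limma, unadjusted p = 0.0397, adjusted p = 0.256), or 0.038 with median-ratio scaling. The call was lost with the block (limma, unadjusted p = 0.0548).

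Of the 23 genes of the translocon and signal peptide handling, 1 was higher at the unadjusted p and 0 lower (against 16.0% and 1.98% of all genes). Their median log2FC was 0.058, or -0.067 with median-ratio scaling. *Sec61a2*, a pore subunit, was at 0.16 (limma, adjusted p = 0.256), and its call was lost with the block (limma, unadjusted p = 0.0536) and with median-ratio scaling (0.041), and *Sec11c*, of the signal peptidase, was at 0.17 (limma, adjusted p = 0.374). Of the 12 oligosaccharyltransferase genes, 1 was higher and 0 lower (against the same 16.0% and 1.98%), with a median of 0.11, or -0.0072 with median-ratio scaling. *Stt3b*, a catalytic subunit, was at 0.16 (limma, adjusted p = 0.264), and its call was lost with the block (limma, unadjusted p = 0.0621) and with median-ratio scaling (0.037), and *Magt1*, an oxidoreductase subunit, was at 0.13 (limma, adjusted p = 0.302). Of the 8 ER-phagy genes, which take parts of the ER to lysosomes, 2 were higher, against 16.0% of all genes, and 0 lower, with a median of 0.12. With median-ratio scaling 0 of the 8 passed, with a median of -0.0039. They were *Atl3* at 0.24 (limma, adjusted p = 0.241) and *Tex264* at 0.16 (limma, adjusted p = 0.258), which was lost with the block (limma, unadjusted p = 0.0507).

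The PERK arm and integrated stress response had genes on both sides. Of its 15 tested genes, 2 were higher and 2 lower at the unadjusted p (against 16.0% and 1.98% of all genes), with a median log2FC of 0.015. With median-ratio scaling 1 was higher and 5 lower (against 3.9% and 6.7%), with a median of -0.11, and with the block as well 3 were higher and 6 lower (against 6.19% and 9.5%). *Ddit4*, which encodes the mTORC1 inhibitor REDD1, was at 25.3, 26.3, 11.8 and 13.9 TPM in the NT legs, against 38.2, 44.4, 23.9 and 34.3 TPM in the *Uba1* legs. It was higher in 4 of 4 mice (log2FC 0.88, SE 0.275, limma, adjusted p = 0.182) and passed with the legs as a block (limma, adjusted p = 0.0359), but not with the block and median-ratio scaling (limma, adjusted p = 0.0681) or quantile normalization (limma, adjusted p = 0.0803). *Cebpb*, a transcription factor, was at 20.1 to 26.3 TPM in the NT legs, against 16.6 to 19.0 TPM in the *Uba1* legs, with no overlap (log2FC -0.34, SE 0.0878, limma, adjusted p = 0.157). It did not pass with the block alone (limma, adjusted p = 0.0795) and passed with the block and median-ratio scaling (limma, adjusted p = 0.0249) or quantile normalization (limma, adjusted p = 0.0404). The others, outside the rule for named genes, were *Eif2ak4* at 0.25 and *Ppp1r15b* at -0.26 (unadjusted p = 0.0264 and 0.0149 from limma). *Ppp1r15a*, *Trib3*, *Asns*, *Sesn2* and *Chac1*, also outside the rule, had log2FC from -0.41 to -0.23, and none passed in the unpaired fit. With the block and median-ratio scaling, *Ppp1r15a*, *Asns* and *Chac1* were among the 6 lower genes (unadjusted p = 0.00182, 0.0117 and 0.0239 from limma). Of the 15 genes, 8 had a log2FC above 0 in the unpaired fit. *Ddit4* and *Cebpb* also respond to hormones and cytokines. *Atf4*, the factor that the PERK arm translates, chosen after its values were seen, was at 117 ± 17.8 and 119 ± 11.8 TPM (SD, n = 4 muscles each).

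Of the 12 sarcoplasmic reticulum genes, 0 passed, with a median log2FC of -0.019. With median-ratio scaling the median was -0.15, and 3 of the 12 were lower, against 6.7% of all genes. *Jsrp1*, a junctional protein, was at 0.11 (limma, adjusted p = 0.413) and turned to -0.017 with that scaling. *Casq1*, the main calcium-binding protein of the lumen, was at 3560, 3814, 4395 and 3925 TPM in the NT legs, against 4069, 2268, 4333 and 2928 TPM in the *Uba1* legs (log2FC -0.25, limma, adjusted p = 0.479). As for BiP, its lowest *Uba1* muscle was that of mouse 2.

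**Figure D5:**
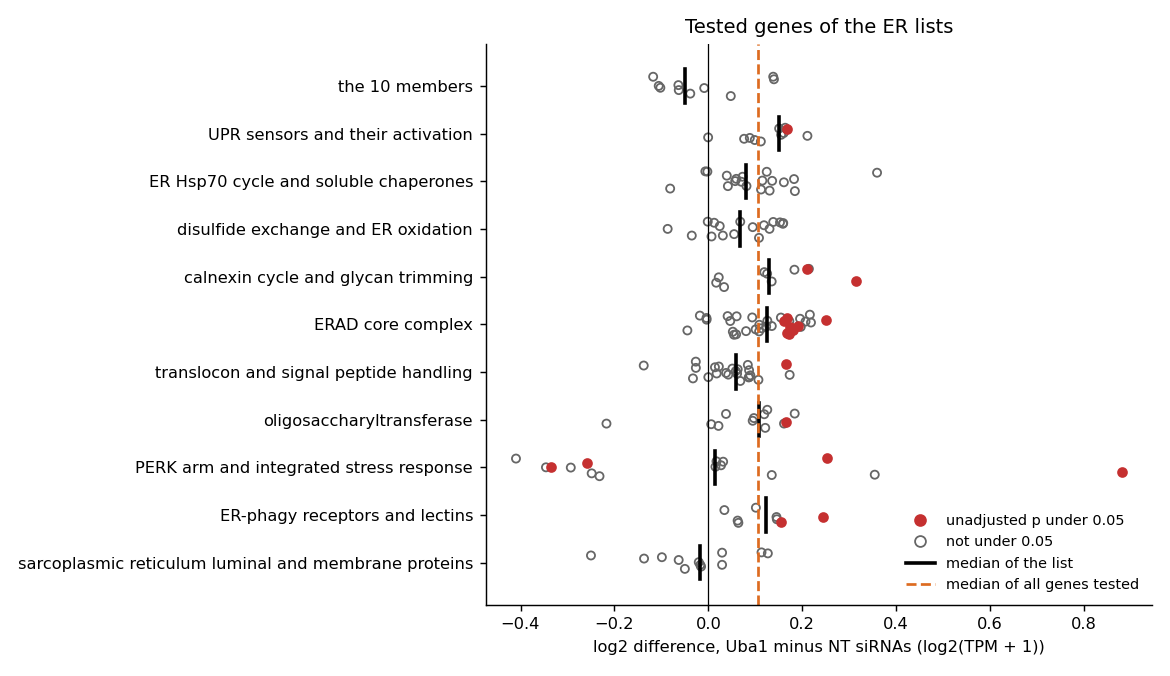
Log2 difference of each tested gene (x axis, *Uba1* minus NT siRNAs on log2(TPM + 1)) by list, filled where the unadjusted p was under 0.05, with the median of the list (black) and of all genes (dashed, 0.11). Among the ER lists drawn, which leave out the cell type markers, the 10 members have the lowest median (-0.051), and the filled points at 0.88 and -0.34 are *Ddit4* and *Cebpb*.

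Ratios within a muscle do not depend on the scaling. In all, 4 ratios of functional partners were chosen after the values were seen, and p was adjusted over these 4. The ratio of *Hsp90b1* to *Hspa5* was 0.59 ± 0.111 in the NT legs and 0.695 ± 0.0964 in the *Uba1* legs (SD, n = 4), higher in 4 of 4 mice (exact permutation test, two-sided, p = 0.229, adjusted 0.229). *Canx* to *Calr* was 0.30 ± 0.0348 and 0.349 ± 0.0159, higher in 4 of 4 mice (exact permutation p = 0.0571, adjusted 0.114). *Edem3* to *Edem1* was 2.90 ± 0.474 and 3.91 ± 0.761, higher in 3 of 4 mice (exact permutation p = 0.0571, adjusted 0.114). *Sel1l* to *Syvn1* was 1.54 ± 0.101 and 1.68 ± 0.133, higher in 4 of 4 mice (exact permutation p = 0.143, adjusted 0.19). None of the 4 passed.

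Genes were also taken by promoter letters alone. An ERSE or ERSE-II lay in 42 protein-coding promoters, of which 39 genes were in the table and 24 were tested. Of the 42, 14 were in the lists used here, among them *Canx*, *Creld2*, *Dnajc3*, *Pdia6*, *Dnajb11*, *Hyou1* and *Manf*, all of which act in ER folding. Of the 24 tested genes, 2 were higher and 1 lower at the unadjusted p, against 16.0% and 1.98% of all genes. Their median log2FC was 0.077 against 0.11 over all genes, and 16 of the 24 were above 0, against 81.8% of all genes. Without the members, the 19 others had a median of 0.086. The mRNAs of *Hyou1*, *Dnajb11*, *Creld2* and *Manf*, which rise with BiP in ER stress and were chosen after their values were seen, had log2FC of 0.081, -0.0064, 0.11 and -0.081, with adjusted p from 0.661 to 0.976 (limma).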

How the data were processed

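Total RNA of 8 TA muscles was sequenced as paired-end reads. After trimming, the authors mapped the reads in CLC Genomics Workbench (GRCm39), and they deposited 1 column of TPM per muscle. The annotation and the treatment of reads that match several genes are not given in the sources used here. Groups and replicate numbers were taken from the sample descriptions. The same number marks the legs of 1 mouse, as the muscle numbers in the titles and the methods of the study show. Correlations of the deviations of same-numbered muscles from their group means were -0.00037, 0.20, 0.58 and 0.54 for replicates 1 to 4.

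Values were transformed to log2(TPM + 1), and genes that reached 1 TPM in 4 or more muscles were tested with limma 3.58.1 in R 4.3.3 (lmFit, eBayes with a trend), unpaired, with Benjamini-Hochberg adjustment over all 11530 genes. The fit was tested on simulated data. The study names a Kruskal-Wallis test, which was run as an alternative. The other alternatives were another pseudocount, no or a stricter filter, median-ratio scaling, quantile normalization, TPM without mitochondrial genes, the legs as a block, and leaving out each muscle. Leaving out both muscles of a mouse was chosen after seeing the data. The members and lists were chosen with earlier results of these data known. The genes named were the 10 members, *Uba1* and, from each list, the 2 tested genes with the smallest p, and any other gene named was chosen after its values were seen. A gene that this rule names is not reported here. Promoters were read from GRCm39. With 4 muscles a group, precision is limited by their number, and no counting interval can be given for TPM.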

Additional observations from a re-analysis of the deposited data

Results flagged for a closer look

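In a search for muscles far from the other 3 of their group (gap over range above Dixon's 95% critical value), 62 groups of 4 muscles were examined for the named genes, and 6 muscles were found, where chance gives about 3.1 (1 in 20 groups). *Dnajb9* was at 36.0 TPM in *Uba1* replicate 4, against 26.2 to 27.8 TPM in the other 3. *Herpud1* was at 99.4 TPM in the same muscle, against 68.2 to 73.2 TPM, and its contralateral NT muscle was also the highest of its group. *Edem1* was at 4.62 TPM in NT replicate 3, against 3.37 to 3.48 TPM. *Tmx1* was at 9.21 TPM in *Uba1* replicate 2, against 10.6 to 10.9 TPM. *Sec61a2* was at 16.8 TPM in NT replicate 4, against 15.4 to 15.6 TPM, and at 19.9 TPM in *Uba1* replicate 3, against 17.1 to 17.5 TPM.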

How the results depend on the processing

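For every change given here, the cause was not tested. No member was called higher, and none passed the adjusted p, under any alternative run (limma or Kruskal-Wallis). Members called lower at the unadjusted p numbered 1 with median-ratio scaling, 5 with that scaling and the replicate block, 2 with quantile normalization and the block, and 0 to 5 with muscles left out, against 0 (with the scaling and the block, 5, 1, 1 and 4 without mice 1 to 4). All genes called higher numbered 1113 with a mean of 5 TPM or more, 450 and 513 with median-ratio scaling and quantile normalization, and 714 and 824 with these and the block, against 1844. Genes called lower numbered 374 without a filter, 149 with the stricter filter, and 773, 595, 1095 and 822 with those scalings, against 228. With 1 muscle left out, genes called higher ranged from 1154 to 2024 and genes called lower from 169 to 281.

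Small differences changed sign. *Calr* was at 0.0091 without mitochondrial genes. *Syvn1* was at -0.071 with median-ratio scaling and -0.040 with quantile normalization, each alone or with the block, and *Jsrp1* at -0.017 with the former. With 1 muscle left out, the log2FC ranged from -0.21 to 0.0077 for *Hspa5*, -0.087 to 0.020 for *Xbp1*, -0.26 to 0.039 for *Sdf2l1*, -0.073 to 0.082 for *Calr*, -0.14 to 0.023 for *Edem1* and -0.026 to 0.10 for *Syvn1*. With both muscles of a mouse left out and the block, values of changed sign were 0.031 for *Hspa5* (mouse 2), 0.043 for *Xbp1* (mouse 2), 0.015 for *Dnajb9* (mouse 2), 0.045 for *Sdf2l1* (mouse 2), 0.11 for *Sdf2l1* (mouse 3), 0.11 for *Calr* (mouse 2) and -0.0088 for *Syvn1* (mouse 1). With the scaling as well, they were -0.016 for *Hsp90b1* (mouse 1), 0.018 for *Sdf2l1* (mouse 3), -0.031 for *Pdia4* (mouse 4), -0.095 for *Syvn1* (mouse 1), -0.013 for *Syvn1* (mouse 2), -0.090 for *Syvn1* (mouse 3) and -0.086 for *Syvn1* (mouse 4). The replicate block alone changed the call of no member, and the median log2FC of the 10 was -0.051 with it. With 1 muscle left out of the unpaired fit that median ranged from -0.085 to 0.017. With both muscles of a mouse left out and the block it ranged from -0.11 to 0.044. With median-ratio scaling as well it ranged from -0.20 to -0.098, against -0.17 with all mice. Among the other genes that the rule names, the replicate block alone lost *Tmbim6*, *Sec61a2*, *Stt3b* and *Tex264* at the unadjusted p and gained *Fkbp10* and *Tmx1*. With a mean of 5 TPM or more, *Sdf2l1* and *Edem1* were not tested.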
